A study of Mus musculus with 14 samples.

Results

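The circadian clock genes described here are Arntl, Clock, Npas2, Per1, Per2, Per3, Cry1, Cry2, Dbp and Nr1d1. These 10 genes were chosen by name from the 43346 genes of the count table, each matched a single row, and all 10 passed the filter on low counts in each comparison. RNA was sequenced from a brain cross-section holding hippocampus and cortex of 14 female mice, all 23 months old and of the labelled strain C57BL/6;SJL-Tg. The groups were 4 non-transgenic littermates (NTG), 5 APP/PS1 mice and 5 APP/PS1 mice given CP2. APP/PS1 mice (genotype label APP/PS1 +/+) carry mutant human amyloid precursor protein and presenilin 1 transgenes and develop amyloid plaques. The promoters that drive the transgenes are not given in the sources used here. CP2 is a tricyclic pyrone that partially inhibits mitochondrial complex I. It was given at 25 mg/kg/day in drinking water with polyethylene glycol from 9 months of age, and the other mice drank the same vehicle without it. Untreated means vehicle-treated throughout.

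The molecular clock is a feedback loop of transcription that runs in nearly every cell with a period of about a day. ARNTL (also called BMAL1) pairs with CLOCK, or with its relative NPAS2 in the forebrain, and the pair binds E-box sequences and switches on the Per and Cry genes. The PER and CRY proteins accumulate, enter the nucleus and repress that same pair, and so switch off their own transcription. NR1D1 (REV-ERB alpha) closes a further loop by repressing Arntl through ROR elements, and DBP, a PAR-type leucine zipper factor also driven through E-boxes, carries the rhythm to output genes through D-boxes. In most tissues the messages of Dbp, Nr1d1 and the Per genes therefore peak when that of Arntl is low. Per1 is also an early response gene, induced by neuronal activity and light through cAMP-responsive sites, and separately by glucocorticoids. Light-entrained rhythms are set by the suprachiasmatic nucleus of the hypothalamus, which the section need not contain. All mice lived on a light-dark cycle, but the hour at which each brain was taken is not given in the sources used here. A difference in clock phase between mice and a difference in the level around which a gene cycles cannot be told apart in single time-point samples.

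The promoters below show which clock elements lie next to the start sites of 6 members: Per1 and Cry2, whose levels moved together between mice, Clock and Dbp, whose levels moved against each other, and Arntl and Per3, which hold ROR and D-box letters. They were read from RefSeq (build GRCm38.p6, 250 bases before to 50 bases after a start site), which listed 13 windows for 9 of the 10 members. Where a gene had several windows, the one with the most matches is shown, or at a tie the one nearest the gene's start. Per2 had no entry. Each is written 5′ to 3′ on the strand of the gene. Capitals mark, on either strand, the E-box CACGTG, the E'-box CACGTT, the D-box by its name (TTATG, a pyrimidine and AA), the ROR element core TAGGTCA and the cAMP-responsive core TGACG. No match overlapped another.
Per1 (chr11:69098699-69098998, + strand): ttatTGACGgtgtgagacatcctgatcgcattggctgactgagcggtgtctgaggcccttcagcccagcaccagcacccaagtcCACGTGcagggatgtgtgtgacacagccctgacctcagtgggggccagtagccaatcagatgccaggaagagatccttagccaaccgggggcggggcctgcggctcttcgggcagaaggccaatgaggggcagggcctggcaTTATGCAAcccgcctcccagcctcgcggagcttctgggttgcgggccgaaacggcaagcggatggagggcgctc
Cry2 (chr2:92434020-92434319, − strand): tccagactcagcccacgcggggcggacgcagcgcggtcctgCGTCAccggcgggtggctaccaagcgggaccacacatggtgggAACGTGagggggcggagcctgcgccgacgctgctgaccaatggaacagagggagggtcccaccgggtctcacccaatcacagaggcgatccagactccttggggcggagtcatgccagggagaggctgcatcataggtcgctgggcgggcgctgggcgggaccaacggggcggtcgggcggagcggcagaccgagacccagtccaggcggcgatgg
Per3 (chr4:151044616-151044915, − strand): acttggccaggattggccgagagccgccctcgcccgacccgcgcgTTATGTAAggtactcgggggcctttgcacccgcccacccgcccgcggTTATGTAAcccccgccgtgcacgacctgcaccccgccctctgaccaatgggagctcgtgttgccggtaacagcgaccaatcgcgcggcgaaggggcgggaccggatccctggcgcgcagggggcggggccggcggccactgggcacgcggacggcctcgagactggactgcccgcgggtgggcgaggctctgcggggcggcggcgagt
Arntl, the second of its 2 windows (chr7:113207261-113207560, + strand): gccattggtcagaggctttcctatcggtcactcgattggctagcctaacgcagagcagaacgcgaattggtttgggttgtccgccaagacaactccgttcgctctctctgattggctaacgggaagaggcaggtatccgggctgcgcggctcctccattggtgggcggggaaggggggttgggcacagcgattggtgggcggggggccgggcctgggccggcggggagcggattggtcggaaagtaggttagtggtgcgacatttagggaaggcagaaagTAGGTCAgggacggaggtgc
Dbp (chr7:45704997-45705296, + strand): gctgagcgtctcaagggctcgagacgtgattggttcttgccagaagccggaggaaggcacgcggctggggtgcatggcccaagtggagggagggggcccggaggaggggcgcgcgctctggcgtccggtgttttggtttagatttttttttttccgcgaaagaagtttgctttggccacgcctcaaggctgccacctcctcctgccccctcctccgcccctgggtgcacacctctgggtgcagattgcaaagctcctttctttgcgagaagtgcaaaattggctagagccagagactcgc
Clock, the second of its 3 windows (chr5:76304499-76304798, − strand): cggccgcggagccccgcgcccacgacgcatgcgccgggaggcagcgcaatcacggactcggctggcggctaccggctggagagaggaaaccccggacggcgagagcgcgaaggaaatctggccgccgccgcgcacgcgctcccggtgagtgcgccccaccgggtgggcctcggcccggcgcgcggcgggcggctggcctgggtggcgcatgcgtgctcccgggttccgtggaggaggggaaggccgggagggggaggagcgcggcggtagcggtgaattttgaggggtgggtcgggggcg

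The Per1 window shown, 1 of its 2, held 3 different elements. They were a cAMP-responsive core 246 bases, an E-box 166 bases and a D-box 24 bases upstream of the start site. That site lies 3732 bases inside the gene's span in the count table. The other Per1 window held only a cAMP-responsive core, 132 bases upstream of its own start site. Cry1, whose window is not shown, had an E'-box 79 bases, an E-box 60 bases and a cAMP-responsive core 8 bases upstream. Cry2 had a cAMP-responsive core 209 bases and an E'-box 166 bases upstream. Per3 had D-boxes 205 and 158 bases upstream. The ROR core of Arntl lay 31 bases into the transcribed part. The windows of Dbp, Clock and Npas2 held none of these letters, which says nothing of sites farther away. Of all 32851 windows in the reference, 7.15% held the E-box, 4.68% the E'-box, 1.66% the D-box, 2.61% the ROR core and 20.8% the cAMP-responsive core, against 2, 3, 2, 1 and 4 of the 13 windows of the members. A match is a stretch of letters and not a measured binding site.

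Per length, Nr1d1 was the most abundant clock message in this tissue. The authors' RPKM (reads scaled to the length of the gene and to the mapped reads of the library), the scale used here to compare genes with each other, was 48.2 ± 1.998 for Nr1d1 (SD, n = 14 mice). Dbp followed at 19.9 ± 3.87, Cry2 at 15.96 ± 1.15, Clock at 10.6 ± 0.505, Per1 at 10.3 ± 2.34, Arntl at 6.91 ± 0.947, Npas2 at 4.92 ± 1.18, Cry1 at 4.41 ± 0.469, Per2 at 4.35 ± 0.814 and Per3 at 3.86 ± 0.647. In this order 2 steps were larger than the spread over mice: Nr1d1 lay above Dbp and Cry2 above Clock in all 14 mice without overlap of the ranges. The ranges of the other neighbours overlapped. Within a library, Per1 still lay above Arntl in all 14 mice and Arntl above Npas2 in 13. The remaining steps held in 8 to 11 mice. Between CRY paralogues, Cry2 exceeded Cry1, and between the partners of ARNTL, Clock exceeded Npas2. This order depends on the gene lengths used. The lengths given with the RPKM are 2904 bases for Arntl and 7478 for Clock, where their annotated exons hold 7523 and 13727 bases. The other members differ less or not at all (Npas2 has 4791 bases by both). The order on exonic lengths was not tested, so the places of Arntl and Clock hold for the authors' values only.

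**Figure D1:**
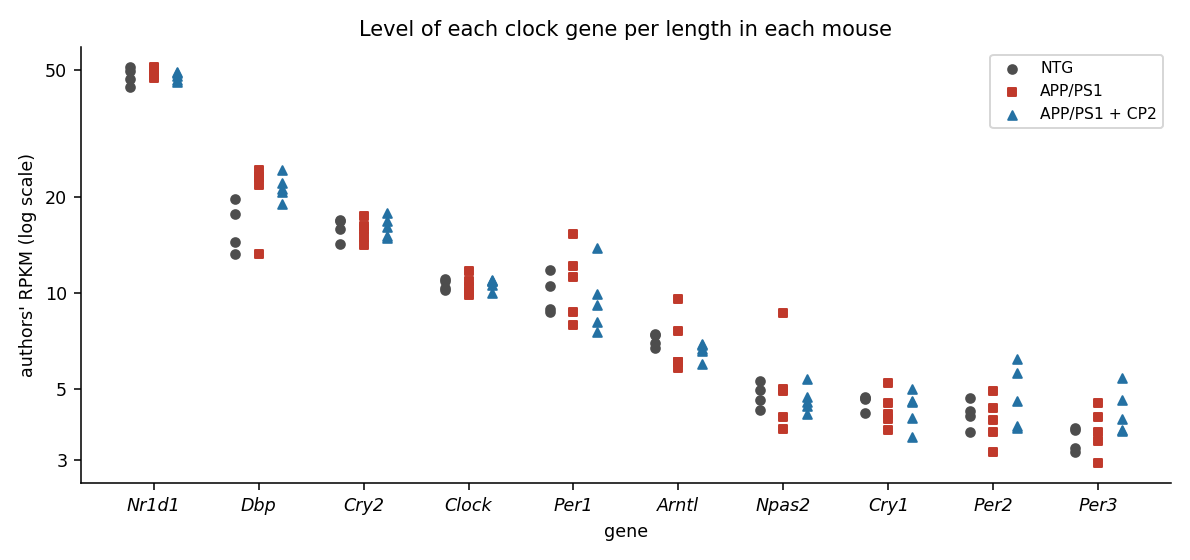
Level of each clock gene per length in each mouse. Each point is the authors' RPKM of a mouse on a log scale, with colour and marker giving the group. Nr1d1 lies between 44.2 and 51.0 RPKM in every mouse, above all other members.

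Total counts ranged from 70548781 to 106235625 per mouse, and the members had between 1085 reads (Cry1) and 19882 reads (Nr1d1) in a mouse. The replicates are separate mice. In striatal and thalamic markers a single library stood apart, that of APP/PS1 mouse 16. There the summed level of the 9 striatal markers (Drd1a, Drd2, Adora2a and others) was 2619 CPM (counts scaled to library size, with TMM factors). In the other 13 mice it was 207 to 395 CPM. The summed level of the 8 thalamic markers was lowest in mouse 16 (182 CPM against 392.1 to 689 CPM). That of 5 choroid plexus markers (Ttr, Kl and others) varied widely, from 11.1 CPM in mouse 16 to 1337 CPM in APP/PS1 mouse 17. It was 18.9 to 940 CPM in NTG and 183 to 737 CPM in CP2-treated mice. The part of choroid plexus in the clock values was not tested. Microglial markers separated the genotypes: the summed level of 6 of them was 301 to 319 CPM in NTG, 565 to 741 in untreated APP/PS1 and 464 to 697 in CP2-treated mice, and 6 of 6 rose in APP/PS1 against NTG. Their part in the clock values was not tested. Of the markers of the suprachiasmatic nucleus and hypothalamus, Six6 reached at most 0.363 CPM and Prok2 0.550 CPM in any mouse. Avp stayed at or under 1.24 CPM except for 15.7 CPM in a CP2-treated mouse. Vip, which cortical interneurons also make, was at 18.02 to 35.9 CPM. Lhx1 and Rgs16, which other brain regions also make, were at 0.206 to 7.46 CPM and 8.08 to 30.9 CPM, and Hcrt and Oxt reached 8.17 and 6.47 CPM. Fewer cells of a type and less RNA per cell cannot be told apart in such samples.

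None of the 10 clock genes passed the test between any pair of groups. In APP/PS1 against NTG mice 0 of 10 members had an adjusted p under 0.05, where 5.68% of the 16417 genes tested had one. In CP2-treated against untreated APP/PS1 mice the count was again 0 of 10, with 0.00609% of genes called, and in CP2-treated APP/PS1 against NTG mice 0 of 10, with 6.02%. By the unadjusted p the counts were 0, 0 and 3 of 10, where 18.7%, 6.55% and 20.2% of all genes had an unadjusted p under 0.05. The 3 were Dbp and Per3, with higher levels in CP2-treated APP/PS1 than in NTG mice (a direction in which 11.6% of all genes had such a p), and Arntl, with lower levels (8.59%). In CPM the values of the groups did not overlap for 0, 0 and 1 of the 10 members, and for 9.95%, 1.19% and 9.75% of all genes. All tests are edgeR's quasi-likelihood test with Benjamini-Hochberg adjustment over all genes tested. DESeq2, run as an alternative, called 0, 0 and 1 member, the last being Dbp with an adjusted p of 0.0158. The comparisons share mice, so their values are not independent of each other.

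The median log2 fold change of the members was −0.05 in APP/PS1 against NTG, 0.02 in CP2-treated against untreated APP/PS1 and −0.04 in CP2-treated APP/PS1 against NTG mice. Over all genes tested the same medians were −0.0042, −0.0060 and −0.0015. The median size of the change regardless of sign was 0.08, 0.06 and 0.10 for the members, beside 0.09, 0.07 and 0.08 for all genes. The 95% intervals differed in width between members. For Clock and Nr1d1 all 6 intervals stayed within −0.17 and 0.12 on the log2 scale, whereas for Npas2 and Per1 they reached from −0.63 to 0.58.

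**Figure D2:**
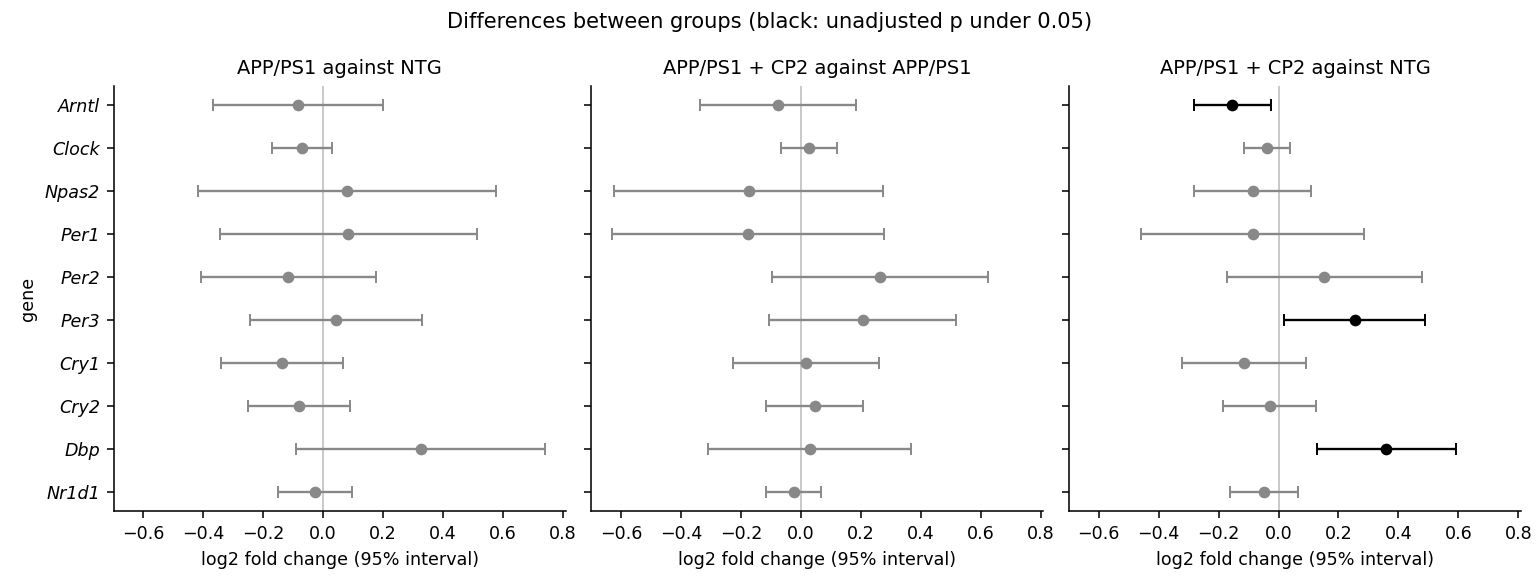
Log2 fold change of each clock gene in the 3 comparisons, with 95% intervals of edgeR's quasi-likelihood fit. Black points have an unadjusted p under 0.05: Dbp at 0.36, Per3 at 0.25 and Arntl at −0.15, all in CP2-treated APP/PS1 against NTG mice. No point has an adjusted p under 0.05.

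Of the activators, Arntl was the member whose CP2-treated and NTG groups did not overlap in CPM. Arntl (chr7:113207465-113314122 in mm10, + strand), the partner without which the loop stops, was at 25.1, 27.8, 24.7 and 25.9 CPM in the NTG mice. It was at 26.6, 32.0, 20.6, 21.6 and 21.1 CPM in the APP/PS1 mice and at 24.1, 23.0, 23.8, 20.9 and 24.4 CPM in the CP2-treated mice. In CPM every CP2-treated mouse lay below every NTG mouse, while the untreated APP/PS1 mice spanned both groups, with mouse 17 the highest and mouse 18 the lowest of all 14. On the authors' RPKM the CP2-treated and NTG groups overlapped, at 5.99 to 6.93 and 6.73 to 7.42. The log2 fold change of CP2-treated APP/PS1 against NTG was −0.15 (SE 0.06, adjusted p = 0.164). Against NTG the untreated APP/PS1 mice differed by −0.08 (SE 0.13, adjusted p = 0.785) and CP2 against untreated APP/PS1 by −0.08 (SE 0.12, adjusted p = 0.898).

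Clock (chr5:76212177-76304548, − strand) encodes the usual partner of ARNTL. It was at 102.2, 99.2, 98.1 and 97.6 CPM in NTG, at 98.3, 100.6, 90.8, 91.6 and 91.8 in APP/PS1 and at 98.3, 97.2, 93.8, 95.3 and 99.2 CPM in CP2-treated mice. The groups overlapped and the whole span over 14 mice was 90.8 to 102.2 CPM. The largest of its 3 log2 fold changes was −0.07 in APP/PS1 against NTG (SE 0.04, adjusted p = 0.467). Npas2 (chr1:39193731-39363236, + strand), which can stand in for Clock in the forebrain, was at 25.4, 30.8, 32.2 and 26.5 CPM in NTG mice. In APP/PS1 mice it was at 50.1, 27.5, 22.9, 21.95 and 29.4 CPM, and in CP2-treated mice at 25.6, 23.8, 27.4, 30.9 and 27.5 CPM. Mouse 16, the one with the striatal markers, had the highest Npas2 by far, and the other 13 mice overlapped between groups. The log2 fold change of APP/PS1 against NTG was 0.08 (SE 0.22, adjusted p = 0.889) with mouse 16 and −0.18 without it, and that of CP2 against untreated APP/PS1 was −0.17 (SE 0.20, adjusted p = 0.862) with it and 0.09 without it. The part of the striatal tissue in the Npas2 value was not tested.

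**Figure D3:**
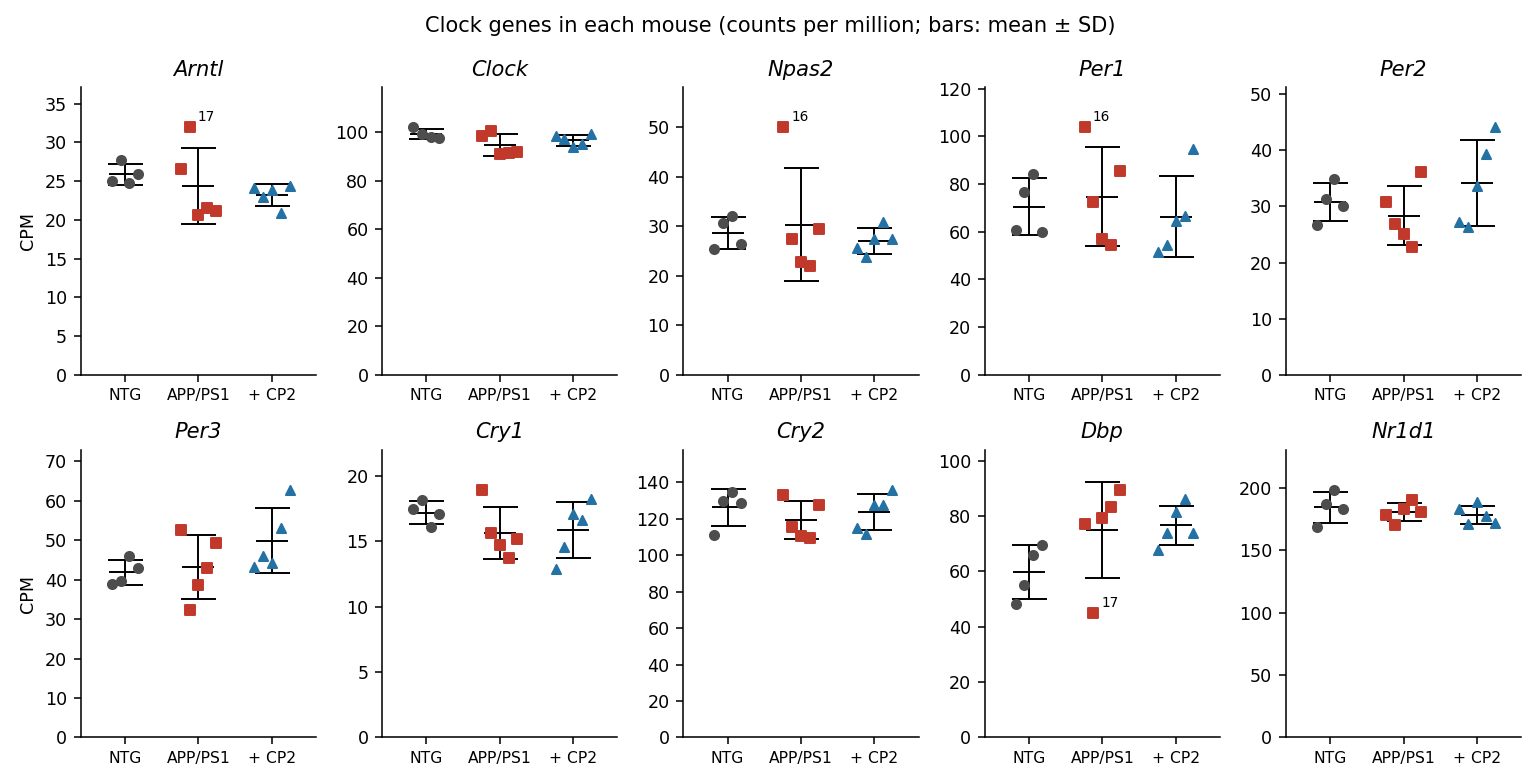
CPM of the 10 clock genes in each mouse, by group, from 0. Points are mice and bars give the mean ± SD of the group. Mouse 16 is marked for Npas2 (50.1 CPM) and Per1 (104.0 CPM), mouse 17 for Arntl (32.0 CPM) and Dbp (44.96 CPM), and the groups overlap in every panel except the NTG and CP2-treated mice for Arntl.

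The Period genes encode the repressors whose build-up times the loop. They differed widely from mouse to mouse, and their group differences stayed within that spread. Per1 (chr11:69095217-69109960, + strand) was at 60.9, 76.8, 84.3 and 60.1 CPM in NTG mice, at 104.0, 72.6, 57.2, 54.4 and 85.6 CPM in APP/PS1 mice and at 51.5, 54.3, 64.7, 66.8 and 94.5 CPM in CP2-treated mice. The groups overlapped almost wholly, with mouse 16 and a CP2-treated mouse, 25, at the top. The log2 fold changes were 0.08 (SE 0.19, adjusted p = 0.863) for APP/PS1 against NTG and −0.18 (SE 0.21, adjusted p = 0.862) for CP2 against untreated APP/PS1.

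Per2 (chr1:91415982-91459324, − strand), a repressor needed for a sustained rhythm, was at 26.6, 31.4, 34.8 and 30.0 CPM in NTG mice. It was at 30.8, 26.9, 25.1, 22.7 and 36.04 in APP/PS1 and at 27.1, 26.4, 33.7, 39.3 and 44.1 CPM in CP2-treated mice. The mean was highest in the CP2-treated group, yet of its 5 mice 2 lay within the NTG range, 1 just below it and 2 above it. The log2 fold change of CP2 against untreated APP/PS1 was 0.26 (SE 0.16, 95% interval −0.10 to 0.62, adjusted p = 0.762), which was the largest change of any member in that comparison. Per3 (chr4:151003652-151044665, − strand), the paralogue least needed for the rhythm itself, was at 38.8, 39.6, 45.9 and 42.9 CPM in NTG mice. It was at 52.5, 32.3, 38.6, 43.0 and 49.2 in APP/PS1 and at 43.1, 46.0, 44.2, 53.1 and 62.8 CPM in CP2-treated mice. In CP2-treated APP/PS1 against NTG mice its log2 fold change was 0.25 (SE 0.11, adjusted p = 0.210), with overlap between the groups. Against untreated APP/PS1 mice it was 0.21 (SE 0.14, adjusted p = 0.781).

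The Cryptochrome genes encode the strongest repressors of the ARNTL pair. Cry1 (chr10:85131702-85185054, − strand) was at 17.5, 18.2, 16.1 and 17.1 CPM in NTG, at 18.97, 15.7, 14.7, 13.7 and 15.2 in APP/PS1 and at 12.9, 14.6, 17.1, 16.6 and 18.2 CPM in CP2-treated mice. Of the untreated APP/PS1 mice 4 of 5 lay below the lowest NTG mouse, and mouse 16 lay above the highest. Its log2 fold change in APP/PS1 against NTG was −0.14 (SE 0.09, adjusted p = 0.486) with all mice and −0.22 (adjusted p = 0.0751) without mouse 16. Over all single mice left out in turn it ranged from −0.22 to −0.093, with adjusted p from 0.0751 to 0.712. Cry2 (chr2:92403646-92434043, − strand) was at 111.4, 130.0, 134.9 and 128.7 CPM in NTG, at 133.1, 115.6, 110.8, 109.4 and 127.8 in APP/PS1 and at 115.1, 111.8, 127.6, 127.5 and 136.1 CPM in CP2-treated mice. The ranges were almost the same in the 3 groups. The largest of its log2 fold changes was −0.08 in APP/PS1 against NTG (SE 0.08, adjusted p = 0.645).

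Of the output side, Dbp gave the largest log2 fold change of any member, and those of Nr1d1 stayed within 0.05 of 0. Dbp (chr7:45705088-45710155, + strand) was at 48.3, 55.0, 66.0 and 69.6 CPM in NTG mice. It was at 77.2, 44.96, 79.4, 83.3 and 89.6 in APP/PS1 and at 67.9, 74.0, 81.5, 86.0 and 73.9 CPM in CP2-treated mice. The transgenic mice lay high with the exception of mouse 17, which had the lowest value of all 14, and the CP2-treated and NTG groups overlapped by a single pair of mice. Group means were 59.7 ± 9.82 CPM in NTG (SD, n = 4), 74.9 ± 17.4 CPM in APP/PS1 (n = 5) and 76.6 ± 7.11 CPM in CP2-treated mice (n = 5). The level was 1.28-fold that of NTG in CP2-treated APP/PS1 mice (95% interval 1.09 to 1.51, log2 fold change 0.36, SE 0.11, adjusted p = 0.0757). In untreated APP/PS1 mice the log2 fold change was 0.33 (SE 0.19, adjusted p = 0.400) with mouse 17 and 0.46 (adjusted p = 0.0523) without it. Over all single mice left out in turn it ranged from 0.24 to 0.46, with adjusted p from 0.0523 to 0.602. CP2 against untreated APP/PS1 gave 0.03 (SE 0.15, 95% interval −0.31 to 0.37, adjusted p = 0.970).

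Nr1d1 (chr11:98767932-98775333, − strand) was at 168.2, 186.6, 198.5 and 183.3 CPM in NTG, at 178.3, 170.2, 183.1, 190.5 and 180.8 in APP/PS1 and at 183.0, 170.8, 188.4, 177.0 and 171.4 CPM in CP2-treated mice. All 3 groups overlapped, and its log2 fold changes were −0.03, −0.02 and −0.05 with SE of 0.06, 0.04 and 0.05 in the order of the comparisons above. Both genes are known targets of the ARNTL pair.

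Since Dbp and Arntl peak at opposite times of day in most tissues, their ratio was formed within each library, where it does not depend on the scaling between libraries. On the log2 scale, from the authors' RPKM, the ratio of Dbp to Arntl was 0.93, 0.97, 1.40 and 1.41 in NTG mice. It was 1.52, 0.47, 1.92, 1.93 and 2.06 in APP/PS1 mice and 1.47, 1.67, 1.75, 2.02 and 1.58 in CP2-treated mice. Every transgenic mouse except mouse 17 lay above every NTG mouse. The means were 1.17 ± 0.26, 1.58 ± 0.65 and 1.70 ± 0.21 (SD, n = 4, 5 and 5). The ratio was chosen with the members' values known and is a description without a test.

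Beyond the members, 34 further genes of the clock were listed by role, and all 34 were tested. Of 13 loop partners 0, 0 and 1 passed the adjusted test in the 3 comparisons, and 6, 1 and 4 the unadjusted one. Of 11 kinases, ligases and phosphatases acting on PER and CRY proteins 0 passed either in any comparison. Of 10 known rhythmic outputs 0, 0 and 1 passed the adjusted test and 2, 1 and 3 the unadjusted one. The background is the share of all genes given above for each comparison.

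The loop partner that passed was Bhlhe41 (DEC2), an E-box repressor of the ARNTL pair linked to sleep length. It was at 51.3, 47.6, 53.5 and 52.8 CPM in NTG mice. The CP2-treated mice, at 59.4, 58.5, 63.3, 58.3 and 60.8 CPM, did not overlap with them. It rose by 0.23 on the log2 scale (SE 0.05, adjusted p = 0.0151), and the adjusted p stayed between 0.0269 and 0.0436 with any mouse left out. With all 3 groups in a single fit, where the spread of the untreated APP/PS1 mice counts too, the adjusted p was 0.128. The untreated APP/PS1 mice were at 52.7, 51.4, 64.0, 69.7 and 59.1 CPM (log2 fold change against NTG 0.21, SE 0.09, adjusted p = 0.238). Ciart (CHRONO), another repressor of the pair, ranged from 7.08 to 9.00 CPM in NTG, 7.85 to 13.8 in untreated APP/PS1 and 8.66 to 12.8 in CP2-treated mice. Its log2 fold changes against NTG were 0.41 (adjusted p = 0.186) and 0.35 (adjusted p = 0.123).

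The output that passed was Ppara, a nuclear receptor for fatty acids that binds PER2 and feeds back on Arntl. It was at 3.02, 3.61, 3.704 and 3.26 CPM in NTG mice, at 2.75, 2.14, 2.219, 2.11 and 2.91 in APP/PS1 and at 2.43, 2.67, 2.62, 2.32 and 2.86 CPM in CP2-treated mice. All transgenic mice lay below all NTG mice. It fell in CP2-treated APP/PS1 against NTG by 0.40 on the log2 scale (SE 0.10, adjusted p = 0.0492), but the adjusted p was above 0.05 with any single mouse other than NTG mouse 7 left out (up to 0.141). In untreated APP/PS1 mice the log2 fold change was −0.48 (SE 0.13, adjusted p = 0.0632). There it passed with DESeq2 (adjusted p = 0.0148), in the fit of all 3 groups (0.0203), with limma-voom (0.0144), and without mouse 16 (0.0384) or mouse 20 (0.0456). Over all single mice left out in turn the adjusted p there ranged from 0.0384 to 0.185.

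Rora, an activator of Arntl through the same sites that NR1D1 occupies, ranged from 137 to 173 CPM in NTG, 81.7 to 143 in untreated APP/PS1 and 126 to 188 in CP2-treated mice. Its log2 fold change was −0.48 in APP/PS1 against NTG (adjusted p = 0.0969) and 0.43 in CP2-treated against untreated APP/PS1 mice (adjusted p = 0.744). The first of these passed with DESeq2 (adjusted p = 0.0171) and without mouse 17 (0.0437). Over all single mice left out in turn its adjusted p ranged from 0.0437 to 0.239. Rora is also on the thalamic list, of which 8 of 8 genes had lower values in APP/PS1 than in NTG mice and 8 of 8 higher values with CP2, with 0 of 8 called in each, and 1 and 4 of 8 by the unadjusted p. The part of thalamic tissue in the Rora value was not tested. Fkbp5 and Cdkn1a, both also glucocorticoid-responsive, had log2 fold changes of −0.33 (adjusted p = 0.744) and −0.56 (adjusted p = 0.744) in CP2-treated against untreated APP/PS1 mice.

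Most of the variation of the clock genes lay between mice of the same group. The SD of log2 CPM within groups was 0.34 for Per1, 0.31 for Npas2, 0.28 for Dbp, 0.26 for Per2, 0.22 for Per3, 0.18 for Arntl, 0.16 for Cry1, 0.12 for Cry2, 0.07 for Nr1d1 and 0.05 for Clock. Over the 16521 genes tested in any comparison the median SD was 0.13. Per1 varied more than 91.6% of these genes and Dbp more than 86.8%, whereas Clock varied more than 2.51% only. The SD of Npas2 fell to 0.17 without mouse 16.

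The members were then compared over the 14 mice by their deviations from the group means of log2 CPM, which leaves group differences out. Of the 45 pairs 8 had an adjusted p under 0.05 (two-sided permutation test, 100000 permutations of mice within groups), 6 with a positive and 2 with a negative r. By the unadjusted p there were 18, and by Spearman's rho 7, of which 6 were shared and the other was Npas2 with Per2 (rho 0.76, adjusted p = 0.0134, r of 0.56). The positive pairs joined Per1, Per2, Cry1, Cry2 and Npas2, and the negative ones set Clock against Dbp and Nr1d1. Per3 and Arntl were in none of the 8.

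**Figure D4:**
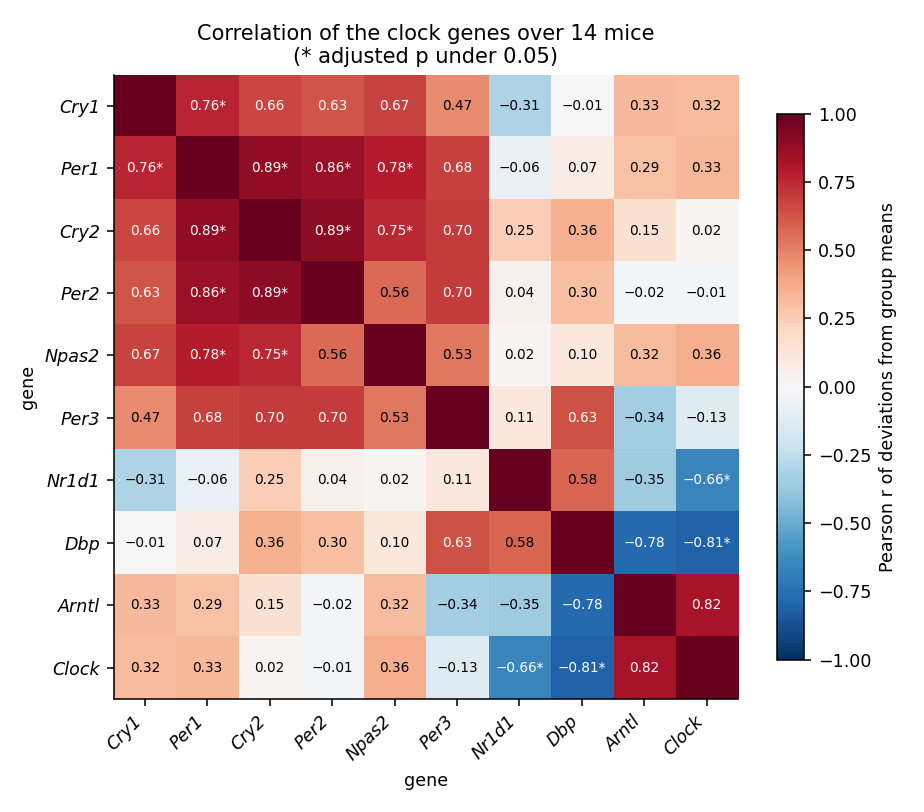
Pearson r between clock genes over 14 mice, from deviations of log2 CPM from the group means. Red is positive and blue negative, and a star marks an adjusted p under 0.05 over 45 pairs. Per1, Per2, Cry2 and Npas2 form the red block (r from 0.56 to 0.89) and Clock opposes Dbp (−0.81) and Nr1d1 (−0.66).

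Among the positive pairs Per2 and Cry2 had the highest r, 0.89 (p = 0.00017, adjusted p = 0.00360; Spearman's rho 0.89, adjusted p = 0.00382). Per1 and Cry2 had an r of 0.89 as well (p = 0.00010, adjusted p = 0.00360, rho 0.85), and 0.83 without mice 16 and 25, the 2 farthest in Per1. Per1 and Per2 had an r of 0.86 (p = 0.00048, adjusted p = 0.00495, rho 0.87), and 0.89 without the same mice. Npas2 joined them, with an r of 0.75 with Cry2 (p = 0.00024, adjusted p = 0.00360, rho 0.83) and of 0.78 with Per1 (p = 0.00095, adjusted p = 0.00712, rho 0.84). Without mouse 16 the r of Npas2 with Per1 was 0.77, with an adjusted p of 0.0567. Cry1 and Per1 had an r of 0.76 (p = 0.00506, adjusted p = 0.0285), but rho was 0.68 with an adjusted p of 0.0747, and without mice 16 and 25 r was 0.50. That pair also lost its call with mouse 16, 18, 19, 21, 22 or 25 left out. Mice 16 and 25 were the highest, and mice 18, 19, 21 and 22 among the lowest, in Per1.

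Of the negative pairs Clock and Dbp had an r of −0.81 (p = 0.00055, adjusted p = 0.00495, rho −0.76). The r stayed between −0.92 and −0.66 with any mouse left out and was −0.76 without mice 16 and 17. Arntl and Dbp had an r of −0.78 (p = 0.0156, adjusted p = 0.0539, rho −0.67), which rested on few mice: it was −0.44 without mice 17 and 18 and −0.37 at the least with a single mouse left out. Arntl and Clock had an r of 0.82 (p = 0.0145, adjusted p = 0.0539, rho 0.75). Without NTG mouse 7 the adjusted p of these pairs was 0.0175 and 0.0361, and without CP2-treated mouse 23 that of Arntl and Clock was 0.0385. With other mice left out the adjusted p rose to as much as 0.313 for Arntl and Dbp and 0.186 for Arntl and Clock. Clock and Nr1d1 had an r of −0.66 (p = 0.00447, adjusted p = 0.0285), with a rho of −0.65 whose adjusted p was 0.0573, and the call was lost with mouse 7, 16, 17, 23 or 25 left out. The r of Clock moved with the scaling of the libraries. On the authors' RPKM, which lack the TMM factors (0.953 to 1.03), r was −0.66 with Dbp (adjusted p = 0.120) and −0.31 with Nr1d1 (adjusted p = 0.560). Mouse 17 had the highest Arntl and the lowest Dbp of all mice, while mice 18, 19 and 20 of the same group had Dbp at 79.4 to 89.6 CPM and Arntl at 20.6 to 21.6 CPM.

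**Figure D5:**
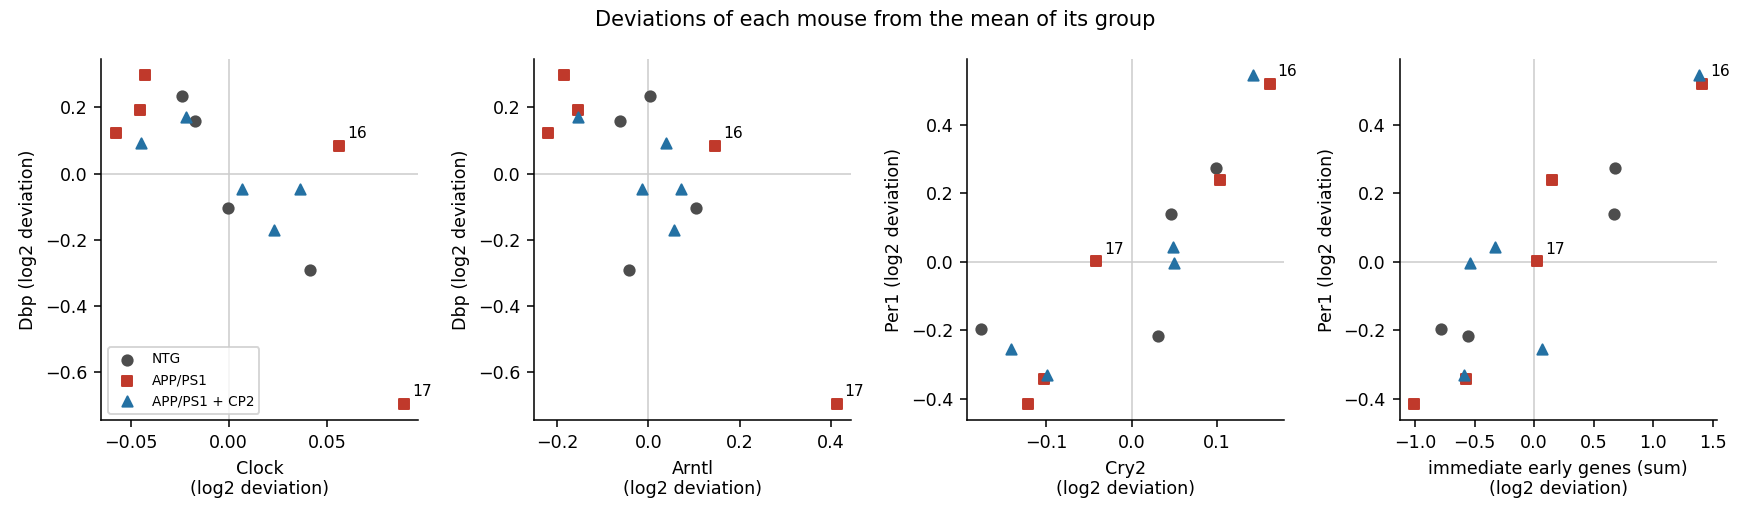
Deviation of each mouse from its group mean on the log2 scale. The panels plot Dbp against Clock, Dbp against Arntl, Per1 against Cry2, and Per1 against the summed immediate early genes. Points are mice, with mice 16 and 17 marked. Dbp has an r of −0.81 with Clock, which was not called on the authors' RPKM. Its r with Arntl is −0.78, which was not called and rests on few mice. Mouse 17 lies at the end in both panels. Per1 rises with Cry2 and with the immediate early genes.

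Measures of the libraries moved with the genes of the positive pairs. In a family of 90 relations (9 measures by 10 members) 11 had an adjusted p under 0.05, by Pearson and by Spearman alike: 4 with cortical markers, 4 with the contrast of long and short genes, 2 with immediate early genes and 1 with astrocyte markers. Total count, the ribosomal RNA-like share and the summed striatal, thalamic and plaque-associated microglial markers had 0 each, and 1 unadjusted p under 0.05 each apart from total count and thalamus with 0. The lowest r of plaque-associated microglia was −0.69 with Cry1 (permutation p = 0.0306, adjusted p = 0.162). The summed level of 11 immediate early genes (Fos, Arc, Npas4 and others), which neurons induce on activity, had an r of 0.90 with Per1 (adjusted p = 0.0164) and 0.75 with Cry2 (adjusted p = 0.0351). That sum ranged from 135 to 878 CPM over mice and was highest in mice 25 and 16, as was Per1. Without these mice the r with Per1 was 0.77. The log2 fold change was negative for 11 of the 11 genes in APP/PS1 against NTG mice. It was positive for 11 with against without CP2. In either comparison 0 were called, and 1 and 0 by the unadjusted p. The median sum did not rise with CP2, at 276 CPM over the untreated transgenic group and 267 CPM over the treated one. Mouse 25 stood at 878 CPM, the next treated mouse at 352 CPM, and untreated mouse 16 at 723 CPM. The NTG sums were 256 and 299 CPM for mice 7 and 10, but 699 and 703 CPM for mice 8 and 9. How far single mice set these signs was not tested. The summed level of 5 cortical markers (Cux2, Rorb, Tbr1, Rasgrf2 and Fezf2), between 278 and 382 CPM, had an r of 0.84 with Cry2, 0.66 with Per1, 0.66 with Per2 and 0.62 with Npas2 (adjusted p of 0.0144, 0.0250, 0.0164 and 0.0232). Rorb is also among the loop partners. The difference in median log2 CPM between the longest and the shortest 10% of genes, a measure that moves with RNA integrity and library preparation, had an r of 0.86 with Cry2, 0.84 with Per2, 0.77 with Per1 and 0.66 with Npas2 (adjusted p of 0.0164, 0.0250, 0.0376 and 0.0250). The summed level of 6 astrocyte markers (Slc1a2, Gfap and others) had an r of −0.82 with Cry1 (adjusted p = 0.0351). The largest parts of that sum were Slc1a2 and Gfap, with medians of 2404 and 1963 CPM in untreated APP/PS1 mice. There Gfap ranged from 1018 to 2598 CPM. The parts of single markers in this r were not tested. The striatal sum had none called, and its r with Npas2 was 0.85 with and 0.16 without mouse 16.

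Partial r with 1 such measure held fixed were added after these values were seen and are given without a test. Most r of the positive pairs were lower with long against short genes, the immediate early genes or the cortical markers held fixed. That of Per1 and Per2 was 0.86 both with and without the immediate early genes held fixed. Given the contrast of long with short genes, the partial r was 0.69 for Per1 with Cry2, 0.62 for Per2 with Cry2, 0.62 for Per1 with Per2, 0.58 for Npas2 with Per1, 0.49 for Npas2 with Cry2 and 0.70 for Per1 with Cry1. Given the immediate early genes these values were 0.75, 0.81, 0.86, 0.44, 0.46 and 0.56, and given the 5 cortical markers 0.82, 0.84, 0.76, 0.63, 0.54 and 0.75. With the striatal markers held fixed they were 0.86, 0.93, 0.91, 0.78, 0.76 and 0.66. With the ribosomal RNA-like share held fixed they were 0.90, 0.90, 0.89, 0.79, 0.80 and 0.75. For Dbp and Clock, over 5 measures held fixed in turn (immediate early genes, long against short genes, cortical markers, striatal markers and the ribosomal RNA-like share), the partial r lay between −0.90 and −0.80. That of Clock and Nr1d1 went from −0.66 to −0.48 with the share of ribosomal RNA-like counts held fixed. Clock itself had an r of −0.76 with that share (permutation p = 0.0186, adjusted p = 0.120), which ranged from 2.40 to 7.50% of counts over mice.

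Some members share sequence with a neighbour on the opposite strand. The authors counted a read on each gene it overlapped, and the strand setting is not given in the sources used here, so that reads from such stretches cannot be assigned to either gene. Dbp and Sphk2, a sphingosine kinase, share 539 exonic bases, 18.01% of the exonic bases of Dbp, and over mice their r was 0.95, the highest of Dbp with any of 16511 genes. Sphk2 was at 46.6 ± 3.45 CPM in NTG (SD, n = 4), 49.9 ± 5.36 in untreated APP/PS1 and 51.4 ± 1.202 CPM in CP2-treated mice (n = 5 each), with a log2 fold change of 0.14 (adjusted p = 0.154) in CP2-treated APP/PS1 against NTG mice, less than the 0.36 of Dbp. Nr1d1 shares 263 exonic bases, 8.55% of its own, with Thra, the thyroid hormone receptor alpha gene, which was at 595 to 713 CPM and had an r of 0.76 with it. Cry2 shares 295 bases, 4.67%, with D930015M05Rik (6.598 to 8.90 CPM, r of 0.76). Per3 lies inside the span of Camta1 without shared exonic bases, and the 2 genes overlapping Npas2, Gm20428 and Gm3617, shared none and were under 0.2 CPM.

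After Sphk2, the genes most like Dbp over the 14 mice were Fam219aos (r of 0.90), Degs2 (0.85), Zfp597 (0.84) and RP24-252K15.4 (0.84). Those most like Arntl were Eif3g (0.88), Ccdc101 (0.88), Cbs (0.88), Htra1 (0.88) and Phf6 (0.84). Each is the highest of 16511 coefficients over 14 mice that share library preparation and tissue composition, and is given as a description.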

How the data were processed

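Brain RNA of 14 mice was sequenced, and per the labels and methods the authors used bcl2fastq, TopHat on mm10 and featureCounts of Subread (versions not given in the sources used here). The deposited table holds raw counts per gene and the authors' RPKM per gene and mouse. A read was counted on each gene it overlapped. The RPKM values served to compare levels between genes, and the counts served for all tests. Total counts ranged from 70548781 to 106235625 per mouse, which gives 0.00941 to 0.0142 CPM per read. The sources name separate mice, and p-values measure the spread between these mice.

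Genes above 1 CPM throughout 1 group or both of a comparison were tested with edgeR 4.0.16 (TMM factors, quasi-likelihood test, Benjamini-Hochberg adjustment over all genes tested) in R 4.3.3, each pair of groups fitted alone. The standard error is the size of the log2 fold change over the root of F. Correlations used log2 CPM with a prior count of 2 as deviations from group means, with 100000 two-sided permutations within groups. Alternatives were DESeq2 1.42.0, limma 3.58.1 voom with quality weights, RLE and upper-quartile factors, no filter, 10 counts in every mouse, a fit of all 3 groups, the ribosomal RNA-like share (2 genes) as a covariate, and each mouse left out. The edgeR step was tested on simulated data. Of 26 pairs of mice within groups none agreed within sampling noise (chi-square per degree of freedom at least 12.3).

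All 10 members are named. Of the other clock genes, those with an adjusted p under 0.05 in any comparison and the 3 with the smallest p in each are named, with the genes overlapping a member and the 5 tested genes most like Dbp and Arntl. The members, lists and rule were chosen with earlier results of these data known. The cortical sum is over 5 of 6 markers, a choice made after seeing the data. The other is not reported here.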

Additional observations from a re-analysis of the deposited data

Results flagged for a closer look

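In 30 sets of a member in a group the highest or lowest mouse was compared with the rest of its group by Dixon's ratio of gap to range, and 2 sets exceeded the 95% critical value, where chance gives about 1 in 20 groups. Npas2 in APP/PS1 mouse 16 was at 50.1 CPM, with the next mouse of the group at 29.4 CPM. The same library had a summed striatal marker level of 2619 CPM, and the part of that tissue in the Npas2 value was not tested. Dbp in APP/PS1 mouse 17 was at 44.96 CPM, with the next mouse at 77.2 CPM. The same mouse had the highest Arntl (32.0 CPM) and the lowest log2 ratio of Dbp to Arntl (0.47).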

How the results depend on the processing

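No paired analysis was possible because the groups share no replicate numbers. With any mouse left out, 0 to 0 members had an adjusted p under 0.05 in each comparison, and 0 to 1, 0 to 1 and 1 to 3 an unadjusted one (APP/PS1 against NTG, CP2-treated against untreated APP/PS1, CP2-treated APP/PS1 against NTG). Other clock genes then numbered 0 to 1, 0 to 0 and 1 to 2, all genes 578 to 1474, 0 to 1 and 572 to 1123, and member correlations 6 to 11. DESeq2 called 1 member (Dbp) in CP2-treated APP/PS1 against NTG, 2 other clock genes in APP/PS1 against NTG, and 1667, 23 and 1670 genes against 932, 1 and 989. The fit of all 3 groups gave 1 other clock gene in APP/PS1 against NTG, 0 genes for CP2 against untreated APP/PS1, and in CP2-treated APP/PS1 against NTG 1 member by the unadjusted p and 0 other clock genes. Limma-voom gave 1 member by the unadjusted p, 1 other clock gene and 1563 genes in APP/PS1 against NTG. With the ribosomal RNA-like share as covariate 3 members passed the unadjusted p in APP/PS1 against NTG, 2 genes were called for CP2 and 1 other clock gene in CP2-treated APP/PS1 against NTG. Upper-quartile factors, no filter and 10 counts gave 1 other clock gene there. For the unadjusted p the share of all genes was taken in the main fit only (18.7% in APP/PS1 against NTG). Member counts by that p in the other settings therefore have no background beside them and are not read as a result. Of 45 correlations 5 were called on log2 RPKM and 13 with centring on all mice. The causes were not tested.

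Signs turned for small changes. In APP/PS1 against NTG limma-voom gave −0.15 for Npas2, −0.082 for Per1 and −0.056 for Per3, and the covariate −0.21 for Npas2, −0.019 for Per1 and 0.022 for Nr1d1. For CP2 against untreated APP/PS1 limma-voom gave 0.030 for Npas2, and the covariate 0.11 for Arntl, 0.085 for Npas2 and −0.14 for Dbp. With a mouse left out, the log2 fold change in APP/PS1 against NTG ranged from −0.18 to 0.18 for Npas2, −0.065 to 0.18 for Per1, −0.039 to 0.13 for Per3 and −0.069 to 0.010 for Nr1d1. For CP2 against untreated APP/PS1 it ranged from −0.13 to 0.038 for Arntl, −0.27 to 0.087 for Npas2, −0.040 to 0.10 for Cry1 and −0.11 to 0.10 for Dbp. In CP2-treated APP/PS1 against NTG it ranged from −0.25 to 0.011 for Per1 and −0.085 to 0.0039 for Cry2. That of Dbp there stayed between 0.27 and 0.43, with adjusted p from 0.0531 to 0.194.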
